A study of Canis lupus familiaris with 8 samples.

Results

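SFRP2 and WIF1, 2 secreted antagonists of WNT signaling, were the only WNT pathway genes found among the 160 genes of a custom canine NanoString panel measured in the skin of 8 dogs. They were found in the data by probe name, and were picked for description with earlier results of these data known. SFRP2 was higher in all 3 dogs with an autoimmune pigmentary disorder than in any of the 5 healthy controls. Its mean housekeeping-scaled count was 27.3-fold higher in Vogt-Koyanagi-Harada syndrome (VKH) and 5.93-fold higher in vitiligo. WIF1 was low in the first VKH dog and in the vitiligo dog, at 0.136 and 0.144 times the healthy mean, but lay within the healthy range in the second VKH dog. The count of SFRP2 relative to that of WIF1 was higher in every case than in any healthy control. This ratio was 2.61 to 4.98 in the cases and 0.0289 to 0.116 in the controls.

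WNT proteins are secreted ligands that bind Frizzled receptors and LRP co-receptors on the cell surface and, in the canonical branch, stabilize beta-catenin so that it can act on transcription. SFRP2 carries a cysteine-rich domain like that of the Frizzled receptors and binds WNT ligands outside the cell. In human skin its transcript is known mainly from dermal fibroblasts. WIF1 binds WNT ligands through a WIF domain of its own, which has no Frizzled-like fold, and is followed by EGF-like repeats. WNT signaling controls hair follicle growth and, in mice, the differentiation of melanocyte stem cells in the follicle, and WIF1 has been tied to pigment production in cultured human melanocytes.

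VKH and vitiligo are autoimmune diseases directed at melanocytes, and the study asked which genes differ in the skin of affected dogs. The VKH group held a male Bernese Mountain Dog of 2.5 years (replicate 1) and a male Husky of 2 years (replicate 2), and the vitiligo group a neutered male Labrador cross of 1 year, all as labelled. The paper describes the second VKH dog as a neutered Siberian Husky and the vitiligo dog as a Rottweiler and Labrador mix, gives other ages for both, and for the first VKH dog it mentions steroid therapy without stating whether this preceded the biopsy. The 5 healthy controls, aged 6 to 12 years, were 3 spayed females (an Alaskan Malamute, a Labrador Retriever and a Siberian Husky cross) and 2 neutered males (a German Shepherd cross and a Golden Retriever), and their skin was cut from leg margins at amputation. Lesional skin was taken by shave or punch biopsy, and the paper places it at the nose. Disease therefore cannot be told apart from age, site or type of biopsy.

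Each lane reads barcodes hybridized to RNA from fixed tissue, without amplification. The panel genes gave 209889 to 675018 counts in the healthy controls, 616576 and 742667 in VKH and 421915 in vitiligo. A scaled count is the count set against the geometric mean of 4 housekeeping genes, B2M, CCZ1, HPRT and RPL13A. B2M itself was higher in the lanes of the cases, at 4.37 and 2.71 times its healthy mean raw count in VKH and 2.42 times in vitiligo, so calls are also given below under other scalings, with those of the gene lists added after the data had been seen. The epidermal keratin KRT5 lay between 24896 and 73747 scaled counts in all 8 dogs, as skin requires. The melanocyte genes TYR and MC1R stood above background in 4 and 6 of the 8 dogs. A change in a whole biopsy can come from fewer or more cells of a type or from less or more RNA per cell, and these cannot be told apart here.

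In healthy leg skin SFRP2 was a low transcript. Its scaled counts in healthy replicates 1 to 5 were 53.8, 212, 64.6, 83.1 and 111. Healthy replicate 2, a male, was the highest and healthy replicate 1, a female, the lowest, a 3.94-fold range. The raw count of healthy replicate 1 was 38 (exact Poisson 95% interval 26.9 to 52.2, counting error only) against a background of 27.8, taken as the mean plus 2 SD of the negative controls, whereas the other healthy controls lay 2.98 to 6.48 times above theirs.

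The scaled SFRP2 count was 1119 in VKH replicate 1, 4597 in VKH replicate 2 and 622 in the vitiligo dog. Every case lay above every healthy control, and the lowest case exceeded the highest control 2.93-fold. A separation of any size in this direction was found for 34.6% of the 156 genes tested with all 3 cases. It was found for 36.5% with the VKH dogs alone and for 43.6% with the vitiligo dog alone. The lack of overlap by itself thus did not set SFRP2 apart, and the share of genes with a gap as wide was not computed. The raw counts behind these values were 1657, 3662 and 541, at least 24.3 times background.

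**Figure D1:**
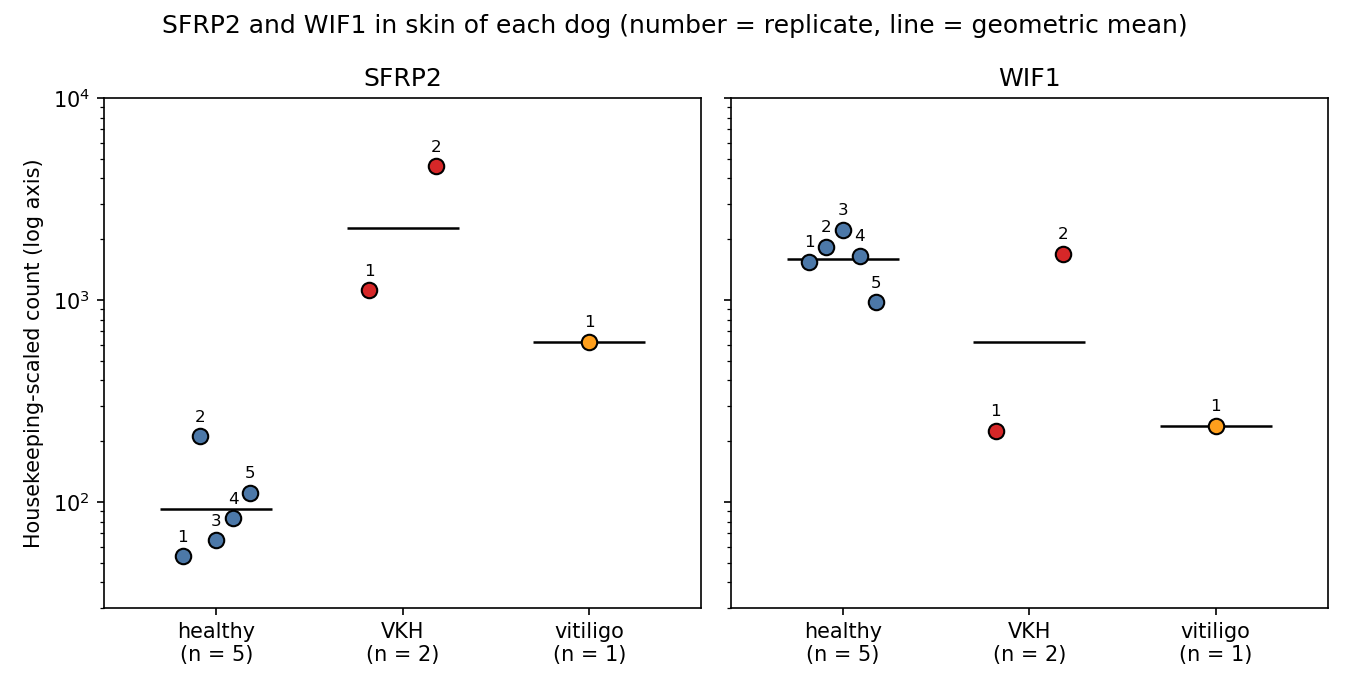
Housekeeping-scaled counts of SFRP2 (left) and WIF1 (right) on a log axis, 1 point per dog with its replicate number, and the geometric mean of each group as a line. For SFRP2 all 3 cases lie between 622 and 4597, above the controls at 53.8 to 212, whereas for WIF1 VKH replicate 2, at 1695, lies among the controls and the other cases lie below them.

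The mean scaled count of SFRP2 was 105 ± 63.7 (SD, n = 5) in healthy skin and 2858 ± 2459.5 (SD, n = 2) in VKH. SFRP2 rose in VKH by 4.77 on the log2 scale (standard error 0.61, 95% interval 3.42 to 6.12, adjusted p = 0.000271 by the edgeR quasi-likelihood test with Benjamini-Hochberg adjustment over 156 genes). It was the third highest of the 156 log2 fold changes in VKH, where the median gene stood at -0.01 and 43.6% of genes were called, 31.4% as higher. In vitiligo the log2 fold change was 2.57 (standard error 0.71, 95% interval 1.00 to 4.14, adjusted p = 0.0244), the seventeenth highest, where 24.4% of genes were called, 21.8% as higher, and the median was 0.29. With 1 vitiligo dog, this test takes its spread from the other groups. Over the 3 cases together it was 4.33 (standard error 0.66, adjusted p = 0.000511), where 50.6% of genes were called, 36.5% as higher.

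An exact permutation test over dogs, two-sided, gave p = 0.0357 for the 3 cases and p = 0.0952 for the VKH dogs, in each case the smallest value that the number of dogs allows. The call in VKH held under every scaling, with log2 fold changes from 3.85 with the library total to 5.51 with the positive controls. With a VKH dog left out it was 5.45 (adjusted p = 0.00024) without replicate 1 and 3.42 (adjusted p = 0.00441) without replicate 2. Each of these fits has 1 VKH dog, whose spread is taken from the 5 controls. The call in vitiligo was lost with TMM (adjusted p = 0.0803), with median-of-ratios scaling (adjusted p = 0.0683), with positive controls (adjusted p = 0.17) and against the male controls alone (adjusted p = 0.195). All 3 cases stayed above all 5 controls under scaling by library total or positive controls, without B2M and with no scaling, where the lowest case was 2.73 to 3.87 times the highest control.

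The group order for SFRP2 was VKH, vitiligo, then healthy skin. The first neighbors in this order differed by 2.20 on the log2 scale (standard error 1.03, 95% interval -0.09 to 4.49, adjusted p = 0.723), which did not pass the test. This was the highest of the 156 differences between VKH and vitiligo, of which 0.641% were called in either direction. Without VKH replicate 2 the difference was 0.85 (adjusted p = 0.977). The vitiligo count of 622 stood closer to that of VKH replicate 1, at 1119, than the VKH dogs stood to each other.

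WIF1 showed the opposite baseline and was a well detected transcript in healthy leg skin. Its scaled counts in healthy replicates 1 to 5 were 1550, 1834, 2231, 1658 and 974, a 2.29-fold range with healthy replicate 5 the lowest and replicate 3 the highest. The coefficient of variation was 27.7%, against 60.7% for SFRP2 in the same dogs. All of these counts were at least 39.4 times background.

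In the cases the scaled WIF1 count was 225 in VKH replicate 1, 1695 in VKH replicate 2 and 238 in the vitiligo dog. VKH replicate 1 and the vitiligo dog lay below every healthy control, whose lowest count was 4.33 and 4.09 times higher. VKH replicate 2 sat at 1.02 times the healthy median. This division, with replicate 2 not below the controls and the other cases below them all, was shared by 5.13% of the 156 genes. Counts below all controls were found in all 3 cases for 10.9% of genes, in both VKH dogs for 18.6% and in the vitiligo dog for 17.3%. The low values were not set by background, since the raw counts of 333 and 207 were at least 9.31 times background.

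Mean WIF1 was 1649 ± 458 (SD, n = 5 healthy controls) in healthy skin and 960 ± 1039 (SD, n = 2 VKH dogs) in VKH. Against healthy skin VKH stood at -0.78 on the log2 scale (standard error 0.65, 95% interval -2.24 to 0.67, adjusted p = 0.336 by edgeR), where 12.2% of genes were called lower. This interval holds both a large fall and a small rise. In vitiligo it was -2.79 (standard error 1.02, 95% interval -5.07 to -0.52, adjusted p = 0.0779), the fourth lowest of the 156 genes, where 2.56% were called lower. Over the 3 cases it was -1.20 (standard error 0.65, adjusted p = 0.142), where 14.1% were called lower. The exact permutation test over dogs, two-sided, gave p = 0.381 for VKH and p = 0.143 for the 3 cases. WIF1 thus passed the threshold in none of these 3 comparisons, and the unadjusted p was under 0.05 only in vitiligo, at 0.021.

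The values in VKH and over the cases turned on the second VKH dog, and the test in vitiligo on the spread between the VKH dogs. Without VKH replicate 2 the log2 fold change of WIF1 was -2.87 (adjusted p = 0.0147) in VKH, -2.79 (adjusted p = 0.0148) in vitiligo and -2.83 (adjusted p = 0.000841) over the remaining 2 cases, so all of these passed. Without VKH replicate 1 it was 0.04 (adjusted p = 0.96) in VKH, and -2.79 (adjusted p = 0.0147) in vitiligo. The vitiligo value rests on the vitiligo dog and the controls, so leaving out a VKH dog could not move it from -2.79, and only its test changed. These fits with 1 dog left out, other than that over the cases, took their spread from the 5 controls alone. Scaling bore on the same dog. With the library total all 3 cases fell below all 5 controls, and WIF1 passed in VKH (-1.80, adjusted p = 0.0369), in vitiligo (-3.23, adjusted p = 0.0414) and over the 3 cases (-2.14, adjusted p = 0.0132). When B2M was dropped from the housekeeping genes, VKH replicate 2, at 2263, instead lay above every healthy control, and the value in VKH was -0.17 (adjusted p = 0.84). VKH replicate 1 and the vitiligo dog remained below all controls under each of the 5 scalings computed per dog.

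**Figure D2:**
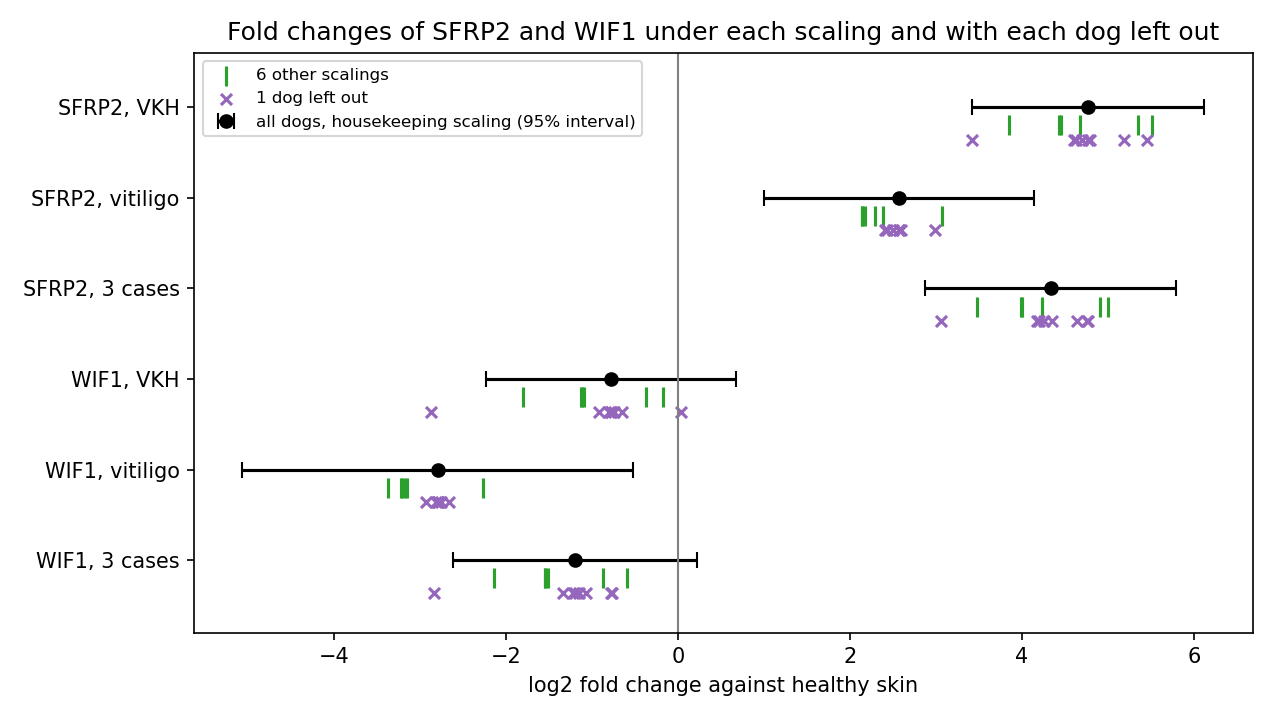
Log2 fold changes of SFRP2 and WIF1 against healthy skin on the horizontal axis, with 95% intervals for the fit of all dogs (black), the values under 6 other scalings (green bars) and with each dog left out (purple crosses). The fitted SFRP2 values stay above 2 on this axis under each scaling and with each dog left out, but the 95% interval in vitiligo reaches below 2. WIF1 in VKH runs from -2.87 without VKH replicate 2 to 0.04 without VKH replicate 1.

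The group order for WIF1 was healthy skin, VKH, then vitiligo, and neither step between neighbors passed the test. VKH exceeded vitiligo by 2.01 on the log2 scale (standard error 1.02, 95% interval -0.26 to 4.28, adjusted p = 0.723), and without VKH replicate 2 this difference was -0.08 (adjusted p = 0.988).

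Both antagonists differed between the VKH dogs in the same direction. VKH replicate 2 had 7.54 times the WIF1 count of replicate 1, the highest ratio of all 156 genes, and 4.11 times its SFRP2 count, a ratio reached by 3.21% of them. This comparison was chosen after the values had been seen. The place of a gene among these ratios does not depend on the scaling, which moves all genes of a dog alike, but the ratios do, from 4.05 to 7.90 for WIF1 and from 2.21 to 4.31 for SFRP2 over the 5 scalings. Compared with the control with the most counts, healthy replicate 3, VKH replicate 2 had a scaled WIF1 count of 1695 against 2231 and a scaled SFRP2 count of 4597 against 64.6.

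The ratio of SFRP2 to WIF1 within a lane does not depend on any scaling. It was 0.0347, 0.116, 0.0289, 0.0501 and 0.114 in healthy replicates 1 to 5, so WIF1 gave 8.65 to 34.6 counts for each count of SFRP2. In VKH replicates 1 and 2 it was 4.98 and 2.71, and in the vitiligo dog 2.61. The 3 cases lay within a 1.90-fold range of each other, and the lowest of them was 22.6 times the highest control. The VKH dogs, which were far apart in each gene, thus differed 1.83-fold in the ratio. A ratio of 1 has no meaning of its own, because the probes of the 2 genes need not capture RNA equally well, and only differences between dogs can be read.

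**Figure D3:**
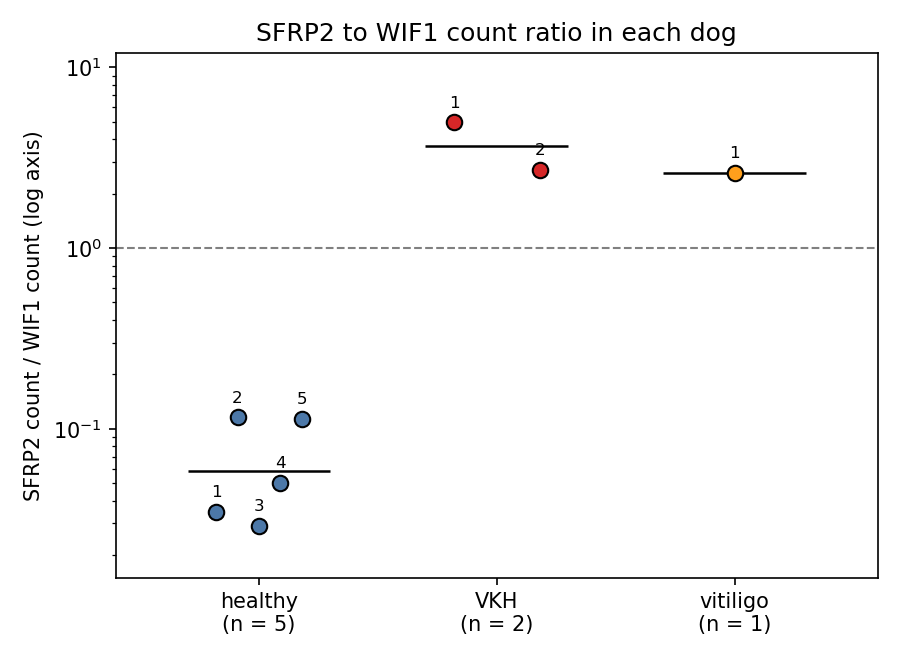
Raw SFRP2 count divided by raw WIF1 count on a log axis, 1 point per dog with its replicate number, geometric mean of each group as a line, and a dashed line at 1. The controls lie between 0.0289 and 0.116 and the cases between 2.61 and 4.98, with no overlap.

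On the log2 scale the ratio was -4.11 ± 0.94 (SD, n = 5 healthy controls), 1.88 ± 0.62 (SD, n = 2 VKH dogs) and 1.39 in the vitiligo dog. The 3 cases exceeded the controls by 5.82 (exact permutation test, two-sided, p = 0.0357, or 0.0714 after Benjamini-Hochberg adjustment over the 2 comparisons made), a 56.4-fold difference. The VKH dogs alone exceeded them by 5.98 (exact permutation test, two-sided, p = 0.0952, the smallest that 2 dogs against 5 allow). Higher ratios were seen in 3 of 3 cases. The pair was picked with earlier results of these data known, and the share of other gene pairs so separated was not computed. Among single genes under housekeeping scaling, all 3 cases lay above all controls for 34.6% and below them for 10.9%. On the housekeeping scale, the mean log2 difference over the cases was 3.98 for SFRP2 and -1.82 for WIF1, whereas in the vitiligo dog the fitted values of 2.57 and -2.79 were of similar size. Subtraction of the negative controls, a floor on low counts or a larger pseudocount left the difference over the cases between 5.63 and 6.12.

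Of the 63 genes of the WNT list drawn up for this comparison, which covers ligands, receptors, co-receptors, antagonists and intracellular members, only SFRP2 and WIF1 were on the panel. None of the WNT ligands, Frizzled receptors and LRP co-receptors listed was measured. Of these 2 genes 1 was called higher and 0 lower in VKH, in vitiligo and over the 3 cases. Over all genes 31.4%, 21.8% and 36.5% were called higher in these comparisons, and 12.2%, 2.56% and 14.1% lower. The call in vitiligo depended on scaling, as given above.

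The other measured fibroblast and matrix genes had values on either side of 0. COL1A1, the main collagen of the dermis, had scaled counts of 30239, 124553, 44368, 49768 and 56636 in healthy replicates 1 to 5, 19404 and 33319 in VKH and 43479 in vitiligo. Its groups overlapped, and it stood in VKH at -1.21 on the log2 scale (standard error 0.62, adjusted p = 0.129 by edgeR). IGFBP5, which binds insulin-like growth factors, fell in VKH by 1.53 (adjusted p = 0.0177), and CXCL12, a chemokine of stromal cells, by 1.32 (adjusted p = 0.0156), both on the log2 scale. Neither passed without scaling, without B2M or with positive controls. CCL19, a chemokine of lymphoid stroma and dendritic cells, rose by 1.71 (adjusted p = 0.00361) in VKH and 1.34 (adjusted p = 0.0493) in vitiligo. It missed the threshold in VKH with the library total (1.00, adjusted p = 0.0528). TGFB3, a TGF-beta ligand, had values of 0.84 (adjusted p = 0.0661) in VKH and 1.10 (adjusted p = 0.0882) in vitiligo.

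Among the 5 measured genes of that list other than SFRP2, 1 was higher and 2 were lower in VKH, against 31.4% and 12.2% of all genes, with a median log2 fold change of -1.21 against -0.01 over all genes. In vitiligo 1 was higher and 0 were lower, against 21.8% and 2.56% of all genes, with a median of -0.49 against 0.29. In VKH these calls numbered 2 higher and 0 lower without B2M, and 0 higher and 3 lower with the library total. The 1 call in vitiligo was lost under every other scaling but that without B2M, where 2 were higher. Summed over these 5 genes, the scaled counts ran from 49854 to 146102 in the controls, from 26397 to 40300 in VKH and to 52290 in vitiligo. COL1A1 made up most of this sum, and its order depended on scaling. Both VKH dogs lay below every control with the housekeeping genes and with the library total, whereas VKH replicate 1, at 39103, lay within the control range of 35222 to 119924 without scaling, and VKH replicate 2, at 53816, within that of 38632 to 138260 without B2M. The list was drawn up with earlier results of these data known.

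**Figure D4:**
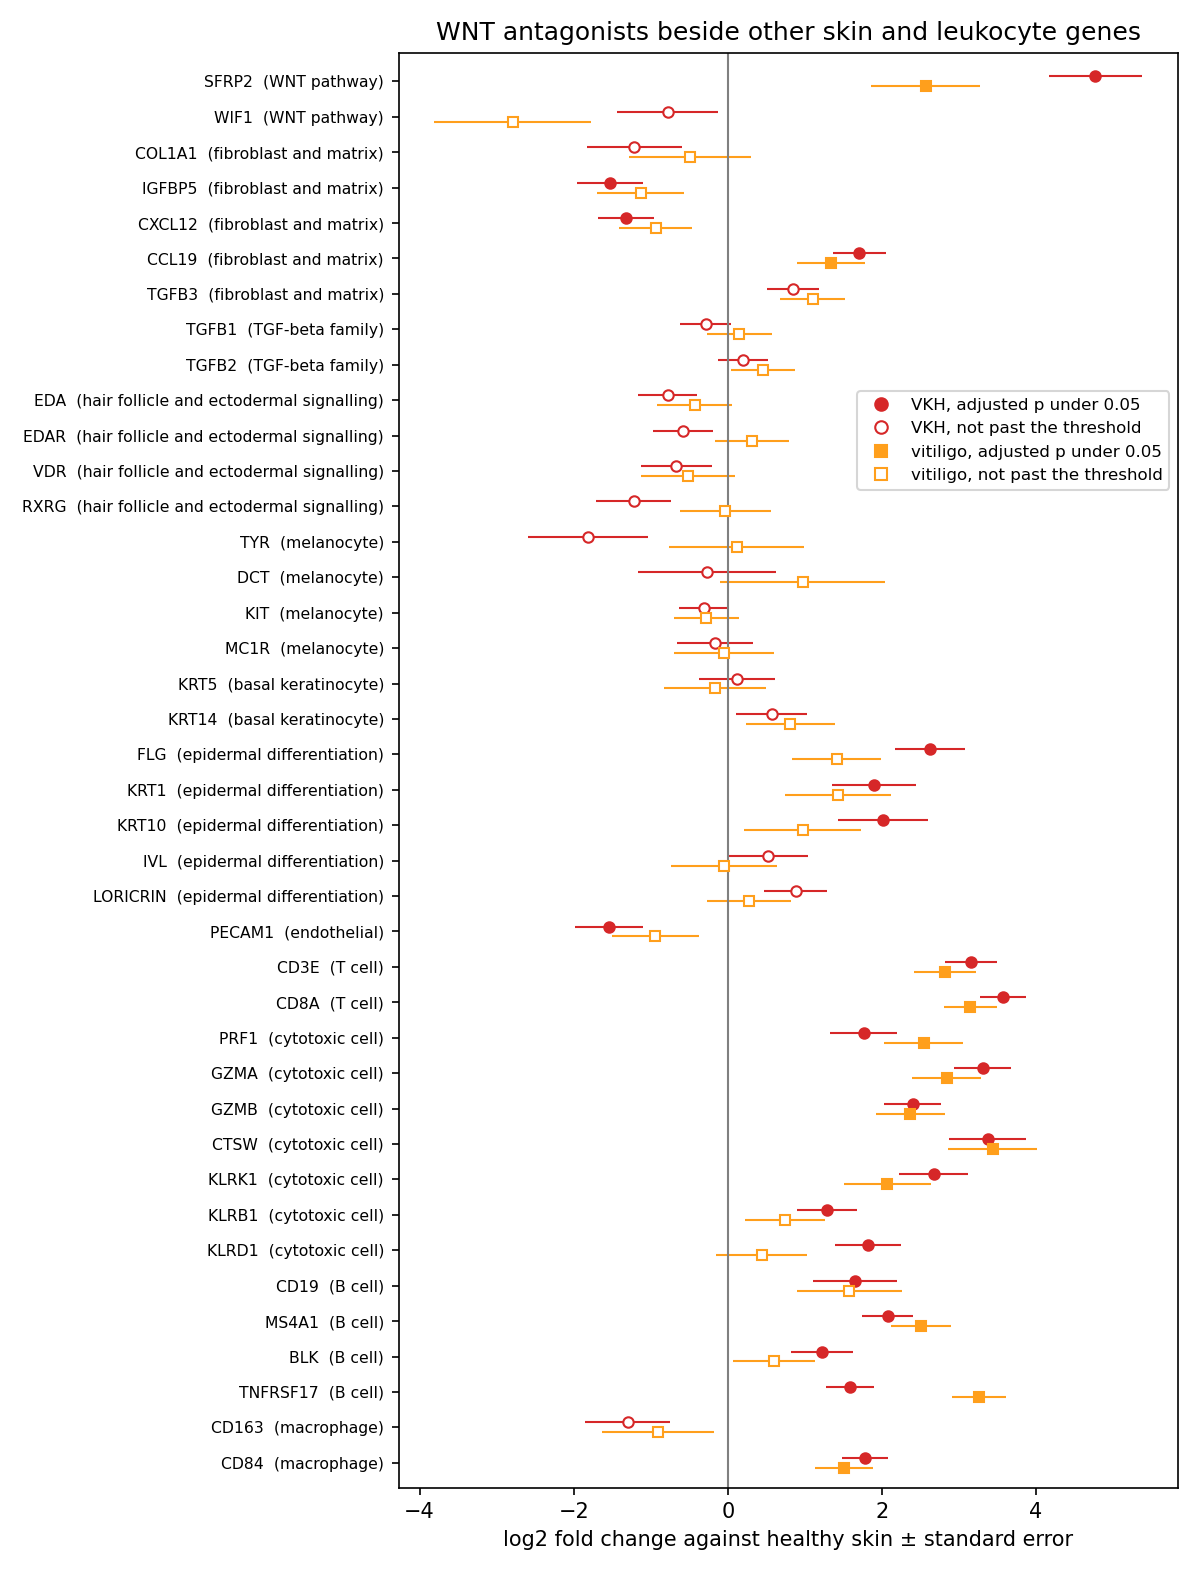
Log2 fold changes against healthy skin (horizontal axis, bars are standard errors) of SFRP2, WIF1 and the measured genes of other skin and leukocyte lists, for VKH (circles) and vitiligo (squares), filled where the adjusted p was under 0.05. SFRP2 stands at 4.77 in VKH, apart from the other fibroblast and matrix genes at -1.53 to 1.71, and WIF1 in vitiligo, at -2.79, is the lowest point. TYR in VKH is drawn, but its raw counts in the VKH dogs lay below background.

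The hair follicle and ectodermal genes showed no call under housekeeping scaling. In mice, EDA and EDAR act together with WNT when follicles form. EDA, the ligand ectodysplasin, had a log2 fold change of -0.78 (adjusted p = 0.109) in VKH, and EDAR, its receptor, one of -0.58 (adjusted p = 0.237), with EDAR above background in 5 of 8 dogs. VDR, the vitamin D receptor needed for hair cycling, and RXRG, a retinoid X receptor, stood at -0.67 (adjusted p = 0.247) and -1.22 (adjusted p = 0.0661). In these 4 genes 0 were called in VKH and 0 in vitiligo, against 43.6% and 24.4% of all genes. Their medians were -0.72 and -0.23. In VKH 3 were called lower with the library total and 2 with TMM or median-of-ratios scaling, and 0 were called in vitiligo under the 6 other scalings. Under housekeeping scaling EDA alone of these was lower in all 3 cases than in every control, like 10.9% of the 156 genes. Its scaled counts were 55.4, 84.1 and 88.5 in the cases against 97.5 to 177 in the controls. Without scaling VKH replicate 1 no longer lay below every control.

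Melanocyte genes showed no call under housekeeping scaling either. TYR, the first enzyme of melanin synthesis, had raw counts of 11 and 15 in the VKH dogs, both below background (16.7 and 16.6), so no fold is printed there. In vitiligo its log2 fold change was 0.12 (adjusted p = 0.927). Healthy replicates 1 and 2, at raw counts of 23 and 10, also lay below their backgrounds of 27.8 and 26.8, which limits this value. DCT, which acts later in the same synthesis, stood at -0.26 (adjusted p = 0.816) and 0.97 (adjusted p = 0.558). KIT, the receptor of stem cell factor, stood at -0.31 (adjusted p = 0.43) and -0.28 (adjusted p = 0.681), and MC1R, the melanocortin receptor, at -0.17 (adjusted p = 0.791) and -0.05 (adjusted p = 0.958). Of these 4 genes 0 were called in VKH, in vitiligo and over the cases by edgeR, against 43.6%, 24.4% and 50.6% of all genes. With the library total 2 were called lower in VKH. The vitiligo dog, whose WIF1 was 0.144 times the healthy mean, had scaled counts of 48.3 for TYR and 368 for DCT, against 12.2 to 100.1 and 45.1 to 538 in the controls.

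Genes of T, cytotoxic and B cells were higher in VKH, like SFRP2, whereas those of other leukocytes went both ways. Not all of the former peaked in the same dog as SFRP2. The T cell genes CD3E and CD8A were higher in VKH by 3.15 (adjusted p = 8.43e-05) and 3.57 (adjusted p = 2.24e-05), and both were higher in vitiligo. All 7 measured cytotoxic genes and all 4 B cell genes were called higher in VKH, against 31.4% of all genes, and 5 and 2 of them in vitiligo, against 21.8%. With the library total 4 cytotoxic genes and 1 B cell gene were called higher in VKH. With positive controls 1 cytotoxic, 1 B cell and 0 T cell genes were called in vitiligo. The T cell pair summed to 110 to 192 scaled counts in the controls, 1251 and 1628 in VKH and 1112 in vitiligo, and no gene of these lists was at 0 in any dog. Under housekeeping scaling CSF3R, the G-CSF receptor of neutrophils, fell in VKH by 1.44 (adjusted p = 0.0177). CPA3, a mast cell protease, fell by 1.42 (adjusted p = 0.0127) and CCL13, a chemokine, by 1.47 (adjusted p = 0.0286). Lower calls in VKH over all genes numbered 19 under that scaling, 6 without B2M, 2 with positive controls and 59 with the library total. The calls of CSF3R, CPA3 and CCL13 under those other scalings are not given here. CD163, a macrophage scavenger receptor, stood at -1.30 (adjusted p = 0.077). The other measured gene of the macrophage list, CD84, rose in VKH by 1.78 (adjusted p = 0.00124 by edgeR). S100A12, a neutrophil calcium-binding protein, rose by 3.84 (adjusted p = 0.0229). PECAM1, an adhesion molecule of endothelial cells, fell in VKH by 1.54 (adjusted p = 0.0178), and did not pass without scaling, without B2M or with positive controls. The part of leukocyte infiltration in the SFRP2 and WIF1 results was not tested.

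The panel genes whose profile over the 8 dogs was most like that of SFRP2 were CD84, a receptor of leukocytes, TRAT1, an adaptor of the T cell receptor, CXCL16, the ligand of CXCR6, and TBX21, the transcription factor of Th1 cells. Their Pearson correlations with SFRP2, computed on log2(scaled count + 1), were 0.970, 0.965, 0.961 and 0.953. All 4 were higher in each case than in each control, like SFRP2, and each was highest in VKH replicate 2. CD84, for example, had scaled counts of 296 and 444 in VKH, 307 in vitiligo and 80.7 to 127 in the controls. TRAT1 and TBX21 exceeded background in 3 and 4 dogs. The dogs share the scaling and fall into groups, so these values describe likeness only, and with the library total CXCL16 was no longer among the 10 nearest genes.

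WIF1 had no such close neighbors. SLC6A2, the noradrenaline transporter, SERPINB2, an inhibitor of plasminogen activators, FOXO3, a forkhead transcription factor, and CCL16, a CC chemokine, came nearest, with Pearson correlations of 0.871, 0.862, 0.803 and 0.751. Without B2M SERPINB2 came first, at 0.800, and SLC6A2 sixth, at 0.630. SLC6A2 showed the same division of the cases, at 49.3 in VKH replicate 1, 110 in VKH replicate 2 and 50.6 in the vitiligo dog against 75.5 to 108 in the controls. CCL16 exceeded background in 1 dog, so its place rests on counts near background. SFRP2 and WIF1 correlated with each other at -0.43 over the 8 dogs, at -0.26 without B2M among the housekeeping genes and at -0.70 when scaled by library total.

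**Figure D5:**
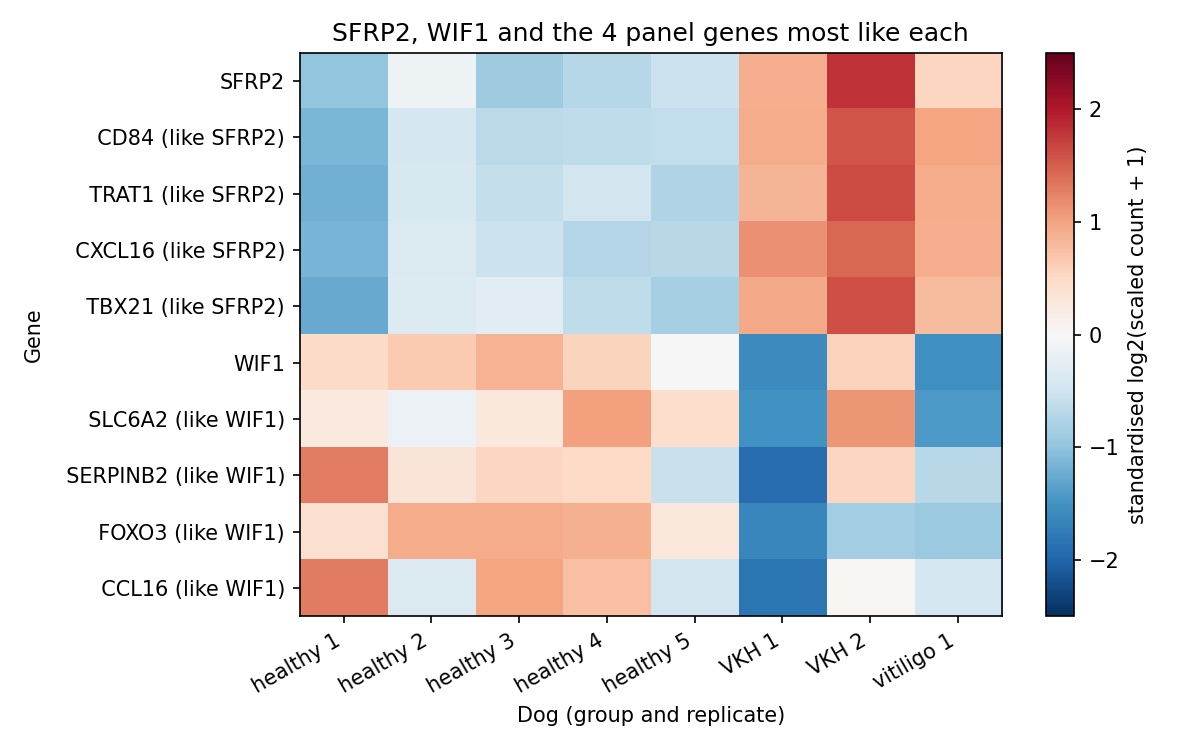
Standardised log2(scaled count + 1) of SFRP2, WIF1 and the 4 panel genes nearest to each (rows) in the 8 dogs (columns), with red for values above a gene's mean and blue for values below it. The SFRP2 rows are red in all 3 cases, whereas WIF1 and SLC6A2 are blue in VKH replicate 1 and the vitiligo dog and red in VKH replicate 2.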

How the data were processed

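The authors deposited raw NanoString counts per probe for 8 dogs, read on a Sprint instrument with no alignment to a genome and handled in nSolver. Here the geometric mean of the 4 housekeeping genes served as library size, with factors rescaled to a geometric mean of 1 over the dogs. Tests used the quasi-likelihood fit of edgeR 4.0.16 under R 4.3.3 (legacy form, no filter) over the 156 other genes, at an adjusted p of 0.05. VKH, vitiligo and healthy were 3 groups of 1 fit of all 8 dogs, and the 3 cases against the controls a second fit. Standard errors were derived from the F statistic. Scaled counts are printed per dog, and correlations use a pseudocount of 1. The housekeeping probe named cg14980 was taken as CCZ1, the 1 left after the other 3. Alternatives used limma 3.58.1 and DESeq2 1.42.0. The procedure was tested on simulated data. The members and gene lists were chosen with earlier results of these data known. Named genes were the members, the 4 genes most like each, and the measured fibroblast, follicle and melanocyte genes. Epidermal differentiation (3 of 5 genes higher in VKH), basal keratinocyte (0 of 2), TGF-beta (0 of 3), adipocyte (1 of 2 lower), macrophage (1 of 2 higher), neutrophil (1 of 2 higher, 1 lower), mast cell (1 of 3 lower) and Langerhans and dendritic cell (1 of 3 lower) lists were also counted. Over all genes 31.4% were called higher and 12.2% lower in VKH. The p-values rest on separate dogs.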

Additional observations from a re-analysis of the deposited data

Results flagged for a closer look

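The raw WIF1 count of healthy replicate 3, at 4146, stood apart from the other healthy controls at 1002 to 1505. Its gap to the nearest control was 0.84 of the range of the 5 controls, above the critical value of 0.71, which chance exceeds in about 1 in 20 groups. That lane also had the highest panel total of the controls, 675018 counts. After housekeeping scaling its count was 2231 and the gap 0.458 of the range, so it no longer stood apart. SFRP2 and the ratio were not flagged in the controls.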

How the results depend on the processing

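SFRP2 in VKH kept its direction and its call under all 17 alternatives (log2 fold change 3.85 to 5.51) and with each dog left out (3.42 to 5.45), and its call in vitiligo held with each dog left out (2.41 to 2.99, other than the vitiligo dog itself). In vitiligo the value missed the threshold at 2.08 against male controls, 2.29 when scaled by positive controls and 2.14 under both TMM and median-of-ratios. Over the 3 cases SFRP2 was 4.23 by a t-test on unscaled counts, which passed unadjusted but not after Benjamini-Hochberg adjustment. The paper used this kind of test for VKH against healthy skin only, without the vitiligo dog. With each dog left out the value over the cases was 3.05 to 4.77. WIF1 passed with the library total in VKH (-1.80), vitiligo (-3.23) and the 3 cases (-2.14), in vitiligo with DESeq2 (-2.79) and with only the 2 groups compared (-2.79), and over the cases with limma (-1.82). With 1 dog left out WIF1 ran from -2.87 to 0.04 in VKH, -2.93 to -2.66 in vitiligo, -2.83 to -0.77 over the cases and -0.08 to 2.83 between VKH and vitiligo, with the sign turned in VKH without VKH replicate 1 (0.039) and between VKH and vitiligo without VKH replicate 2 (-0.082). A fit of only VKH and vitiligo passed for SFRP2 (2.20) and WIF1 (2.01), but holds 3 dogs. The cause of these shifts was not tested, apart from the fewer dogs.

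Genes called numbered 68 in VKH, 38 in vitiligo and 79 over the cases. They numbered 39, 20 and 50 without scaling and 41, 9 and 43 with positive controls. The t-test of the methods, extended here to the cases, gave 24 in VKH and 25 over the cases after adjustment, against 54 and 55 unadjusted. Male controls gave 25 in vitiligo. With 1 dog left out the VKH count ran from 39 without VKH replicate 2, and 44 without VKH replicate 1, to 70. The share of higher calls depended on scaling, at 49 higher and 19 lower genes in VKH as reported, 23 and 59 when scaled by library total and 63 and 6 without B2M. Over the cases these were 57 and 22, 32 and 50, and 67 and 9. Over all genes the median in VKH, -0.01 on the log2 scale as reported, was -0.87 when scaled by library total and 0.57 without B2M.

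The dog number as a replicate block gave 42, 24 and 37 genes and moved SFRP2 to 4.41 and WIF1 to -1.45 in VKH. It changed no call of either gene, but most of these numbers occur only in the controls. This fit therefore has little left to estimate its spread from, and its calls are no support. The numbers only name the dogs (correlations of deviations -0.08 and -0.13), so they do not pair them. The ratio over the cases was 5.43 against male controls (exact permutation p = 0.2) and 5.52 to 6.07 with 1 dog left out, designs that cannot reach the threshold. Depth did not limit WIF1, whereas SFRP2 in healthy replicate 1 lay near background.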
